A study of Mus musculus with 18 samples.

Results

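The 10 genes described here encode ubiquitin ligases linked to muscle wasting, namely Fbxo32, Trim63, Trim54, Trim55, Trim32, Fbxo30, Fbxo21, Fbxo40, Nedd4 and Mul1. They were chosen by name as a family, with no measured value in the rule, and were found among the 55414 genes of the count table by their Ensembl gene identifiers. All 10 belonged to the 21772 genes that reached 10 counts over the 18 libraries and were tested. None of the 10 passed the test after silencing of Erk3 or of Mk5, where 0.0643% to 0.785% of all genes tested passed. Palmitic acid raised Fbxo40 and Fbxo30 and lowered Nedd4 with each of the 3 siRNAs. Among all genes tested, 29.7% to 32.1% passed with palmitic acid. Fbxo32, the best known gene of the family, had confidence intervals around 0.

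Ubiquitin ligases pick the proteins that are tagged with ubiquitin and then broken down by the proteasome. In wasting muscle, a small set of ligase genes is switched on, chiefly by FoxO transcription factors and the glucocorticoid receptor, and their products take apart the contractile apparatus and slow protein synthesis. Insulin and growth factor signaling through Akt holds FoxO factors out of the nucleus and so keeps these genes low.

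RNA was measured in myotubes of C2C12, an established mouse myoblast line that fuses into contractile fibers when serum is reduced. Cells received a non-targeting siRNA (siNTC), a pool of siRNAs against Erk3 (siErk3, gene Mapk6) or a pool against Mk5 (siMk5, gene Mapkapk5), and differentiated for 6 days. They were then kept for 16 h without serum, either with 0.5 mM palmitic acid carried on bovine serum albumin or with the albumin alone (BSA). Each of the 6 groups had 3 libraries. All groups therefore share the transfection and the 16 h without serum, and no group with serum was compared. Nothing in the labels states that the 3 libraries of a group came from separate cultures, so p-values measure the spread between these libraries. The libraries held between 13041979 and 28496727 assigned read pairs, with a median of 22417470, and the 18S ribosomal RNA gene took from 1.5% to 12.87% of them. The lowest count of any of the 10 genes in a library was 152, for Fbxo40, and the coefficient of variation between the 3 libraries of a group had a median of 4.84%, from 0.722% to 13.1%.

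Positions are those of the count table, in the mouse build GRCm39. Trim63 (ENSMUSG00000028834) lies on the plus strand of chromosome 4 from 134042431 to 134056940, and Trim32 (ENSMUSG00000051675, 65523223 to 65534475) and Mul1 (ENSMUSG00000041241, 138161982 to 138169576) lie on the same chromosome and strand. Trim54 (ENSMUSG00000062077, 31274056 to 31294974) and Fbxo21 (ENSMUSG00000032898, 118114795 to 118148266) are both on the plus strand of chromosome 5. Trim55 (ENSMUSG00000060913) is on chromosome 3 from 19698638 to 19746585, Fbxo30 (ENSMUSG00000047648) on chromosome 10 from 11157074 to 11173796 and Nedd4 (ENSMUSG00000032216) on chromosome 9 from 72569628 to 72657134, all on the plus strand. Fbxo32 (ENSMUSG00000022358, chromosome 15, 58039275 to 58078328) and Fbxo40 (ENSMUSG00000047746, chromosome 16, 36783822 to 36810829) are on the minus strand. Counts were taken over exons. In Nedd4, 12.9% of the exonic bases are shared on the same strand with the predicted genes Gm36936 and Gm7265, and read pairs there were left unassigned, so its level is a lower estimate.

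The promoters of 4 members are printed because these genes differ in their response to palmitic acid, from higher (Fbxo40, Trim63) through an interval around 0 (Fbxo32) to lower (Trim55). Each is the 250 bases before the start of the canonical transcript of GENCODE M39, read 5′ to 3′ on the gene's strand from GRCm39, and that start can differ from the end of the gene in the annotation used for counting. They span chr4:134042143-134042392 (plus strand) for Trim63, chr15:58078742-58078991 (minus strand) for Fbxo32, chr16:36810903-36811152 (minus strand) for Fbxo40 and chr3:19698321-19698570 (plus strand) for Trim55. Capitals mark matches, on either strand, to the FoxO core TGTTTAC and to AGAACA, the half-site of the glucocorticoid receptor.
Trim63: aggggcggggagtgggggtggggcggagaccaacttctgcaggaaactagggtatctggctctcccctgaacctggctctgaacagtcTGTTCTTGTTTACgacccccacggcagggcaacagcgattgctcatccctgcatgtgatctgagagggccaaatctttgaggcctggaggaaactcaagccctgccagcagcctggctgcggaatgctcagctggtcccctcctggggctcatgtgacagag
Fbxo32: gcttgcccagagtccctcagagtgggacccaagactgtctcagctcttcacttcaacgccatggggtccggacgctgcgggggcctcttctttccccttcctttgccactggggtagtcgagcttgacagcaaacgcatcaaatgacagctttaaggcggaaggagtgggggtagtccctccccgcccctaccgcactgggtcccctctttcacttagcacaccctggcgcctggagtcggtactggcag
Fbxo40: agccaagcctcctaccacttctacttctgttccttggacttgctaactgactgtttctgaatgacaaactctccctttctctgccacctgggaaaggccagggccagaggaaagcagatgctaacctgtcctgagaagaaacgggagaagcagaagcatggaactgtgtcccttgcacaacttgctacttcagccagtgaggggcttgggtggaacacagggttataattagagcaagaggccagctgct
Trim55: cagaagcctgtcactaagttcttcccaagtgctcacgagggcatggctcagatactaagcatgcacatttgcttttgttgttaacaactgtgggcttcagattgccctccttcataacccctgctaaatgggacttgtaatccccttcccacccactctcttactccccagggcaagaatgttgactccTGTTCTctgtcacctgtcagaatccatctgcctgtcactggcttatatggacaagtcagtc

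In Trim63 the matches to both motifs lie side by side without overlap, the half-site starting 162 bases and the FoxO core 156 bases before the start. The FoxO core was found in 1 of the 10 promoters, that of Trim63, and in 2.72% of 21757 promoters of protein-coding genes of the same length. The half-site was found in 3 of the 10, Trim63, Trim54 and Trim55, against 14.3% of all promoters. E-boxes (CANNTG), which bind myogenic factors among others, were found in 8 of the 10 and in 64.8% of all. They are not capitalized, and a match is a description of letters, not of a bound site.

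The level of each gene per length was expressed as transcripts-per-million (TPM), a count divided by the exonic length and scaled to the same total in every library, which allows genes to be ordered within a library. Nedd4, a HECT-type ligase with many substrates, was at the top with a mean of 378 TPM and a range of 254 to 514 over the 18 libraries, above 98.5% of the genes tested. Trim54, at 131 TPM (102 to 167), and Trim55, at 99.2 TPM (73.5 to 131), followed, and each of these 3 was above the next gene in all 18 libraries. Fbxo32 (41.1 TPM), Trim63 (39.9 TPM), Fbxo30 (38.8 TPM) and Trim32 (37.3 TPM) could not be put in order, since Fbxo32 was above Trim63 in 10 libraries, Trim63 above Fbxo30 in 11 and Fbxo30 above Trim32 in 9. Mul1 (23.2 TPM), Fbxo21 (17.7 TPM) and Fbxo40 (9.29 TPM, 5.63 to 12.1) were lower in this order in all 18 libraries. The 2 ligases most often used to mark atrophy, Fbxo32 and Trim63, were thus in the middle of the family, above 81.1% and 80.7% of the genes tested.

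**Figure D1:**
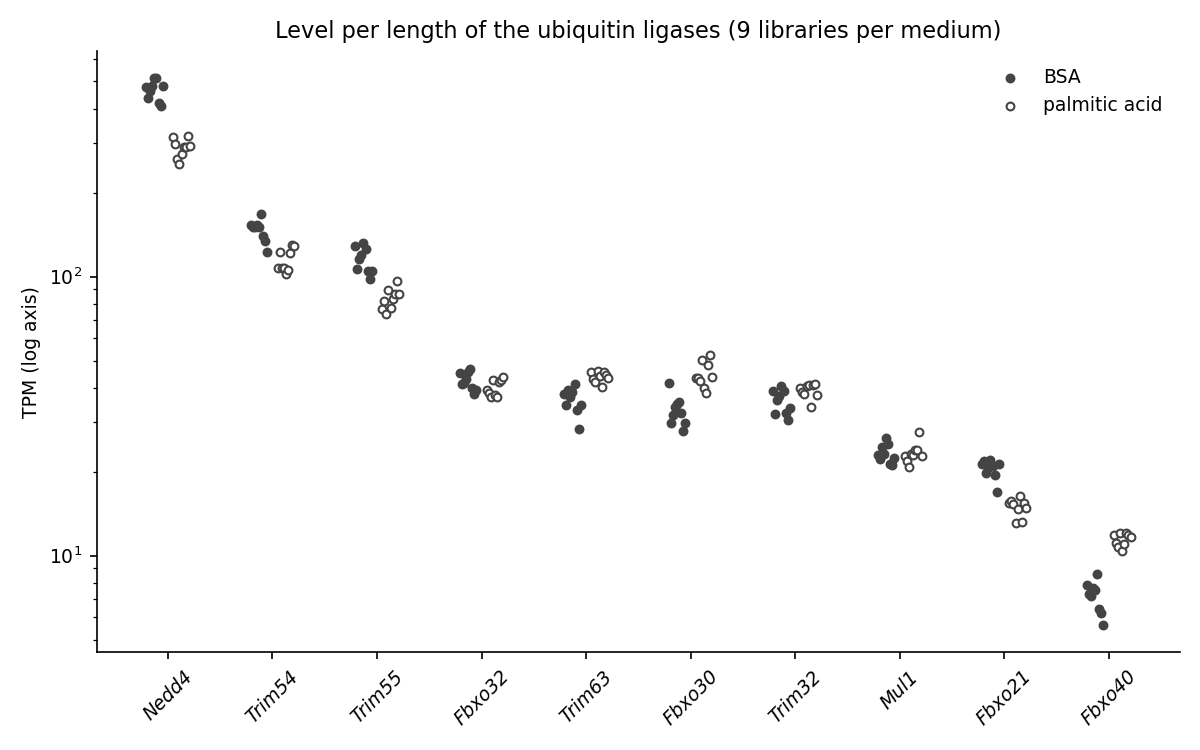
Level of each gene in TPM (log axis) with 1 point per library, filled for the 9 libraries in BSA and open for the 9 with palmitic acid. Genes are ordered by their mean over the 18 libraries, from Nedd4 (378 TPM) to Fbxo40 (9.29 TPM), and Fbxo32, Trim63, Fbxo30 and Trim32 lie close together.

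Changes were tested on TMM-normalized counts with edgeR's quasi-likelihood test in 1 fit of all 18 libraries, and values per library are given as counts-per-million (CPM), scaled to the same library size. A gene was called changed at a false discovery rate (FDR, Benjamini-Hochberg over all genes tested) below 0.05 with a fold change above 1.3, that is a log2 fold change beyond 0.38 in either direction, a rise of 30.0% or a fall of 23.1%. An exact permutation test of 3 against 3 libraries cannot give a p below 0.1, so it was not used for single genes.

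The first question was whether the Erk3 and Mk5 kinases set the level of these ligases. Mapk6, the targeted gene, was at 55.2 to 60.3 CPM in the siErk3 libraries against 129 to 135 CPM in siNTC in BSA, a log2 fold change of -1.20 (SE 0.059, edgeR FDR 1.77e-14), and at 109 to 131 against 215 to 244 CPM with palmitic acid, a change of -0.95 (SE 0.056, FDR 1.21e-12). Mapkapk5 was low throughout. In siMk5 it was at 1.18 to 2.01 CPM against 2.32 to 2.54 CPM in BSA (log2 fold change -0.61, SE 0.21, edgeR FDR 0.469). With palmitic acid it was at 2.17 to 2.43 against 2.52 to 3.92 CPM (-0.49, SE 0.18, FDR 0.469). The RNA of the target thus did not pass the test in the siMk5 comparisons. From Western blots, the authors report efficient silencing of both kinases, and less Erk3 protein after silencing of Mk5.

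None of the 10 ligases was called in any silencing comparison. In BSA, siErk3 gave log2 fold changes from -0.06 (Fbxo21) to 0.07 (Trim32 and Nedd4), where 0.785% of all genes were called, and siMk5 gave changes from -0.09 (Fbxo40) to 0.12 (Nedd4), where 0.0643% were called. With palmitic acid, siErk3 gave -0.10 (Trim54) to 0.11 (Trim55) against 0.556% of all genes called, and siMk5 gave -0.16 (Fbxo21) to 0.16 (Trim55) against 0.547%. At an unadjusted p under 0.05, the edgeR test marked 0 of the 10 in siErk3 in BSA and 1 in each of the other 3 comparisons, and DESeq2 also called 0 in each. Here and below, the share of all genes at that unadjusted p was not taken, so these counts are a description only.

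The intervals are narrow for all 10 genes. Over the 40 values of these 4 comparisons, the 95% confidence intervals reached from a fall of 20.3% (Fbxo21, siMk5 with palmitic acid) to a rise of 19.8% (Trim55, the same comparison), so that every interval lies inside the 1.3-fold limits. For Fbxo32, encoding the F-box protein atrogin-1, the change was 0.02 (95% CI -0.08 to 0.13) with siErk3 and 0.06 (-0.04 to 0.17) with siMk5 in BSA, and 0.04 (-0.07 to 0.14) and 0.10 with palmitic acid, the last with an interval from -0.164% to 15.4%. Trim63, encoding MuRF1, changed by 0.00 (-0.13 to 0.14) and -0.03 (-0.17 to 0.10) in BSA, and by 0.00 (-0.13 to 0.13) and -0.02 (-0.15 to 0.10) with palmitic acid. The lowest FDR of the 40 was 0.297, for Trim55 in siMk5 with palmitic acid, at 66.4, 69.6 and 69.1 CPM against 59.5, 64.9 and 59.7 CPM in siNTC, a log2 change of 0.16 (0.05 to 0.26) with no overlap between the libraries. In that comparison the groups did not overlap for 5 of the 10 genes, Fbxo32, Trim55, Fbxo30 and Mul1 higher and Fbxo21 lower in siMk5, against 12% of all genes tested. In the other silencing comparisons they did not overlap for 0 genes with siErk3 in BSA (17.4% of all genes), 1 with siMk5 in BSA (12.3%), Nedd4 at 0.12 (0.00 to 0.23), and 1 with siErk3 with palmitic acid (12.1%), Mul1 at 0.10 (-0.03 to 0.23).

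**Figure D2:**
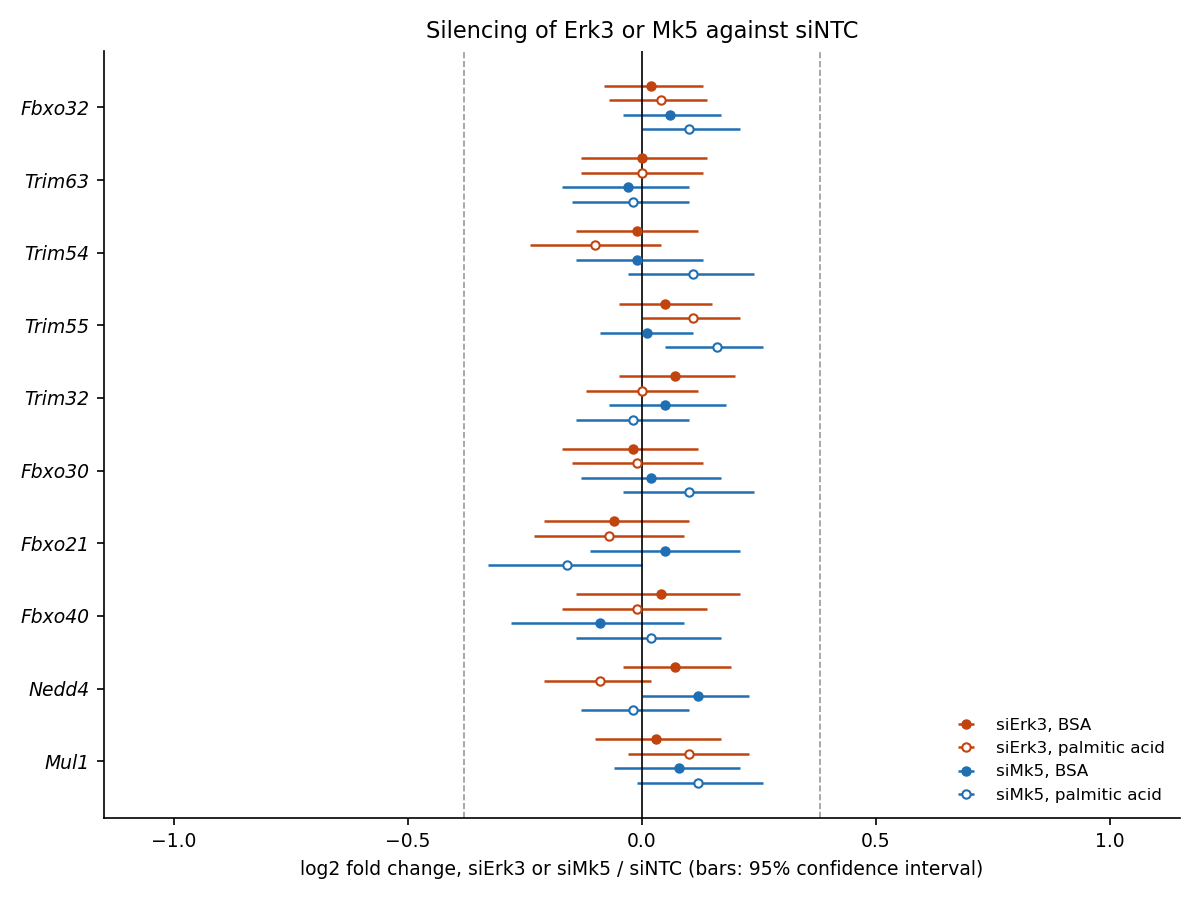
Log2 fold change of each gene after silencing of Erk3 or Mk5 against siNTC, filled in BSA and open with palmitic acid, with bars for the 95% confidence interval from the edgeR fit and dashed lines at the 1.3-fold limits. All 40 intervals end inside the dashed lines.

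The silenced groups were also set against each other. Of the 10 genes, 0 were called between siErk3 and siMk5 in BSA, where the changes lay between -0.10 and 0.13 and 0.588% of all genes were called, and 0 with palmitic acid, where they lay between -0.20 and 0.09 and 1.03% were called. The lowest value belonged to Trim54, encoding MuRF3, at 44.8, 44.5 and 46.1 CPM in siErk3 and 50.3, 50.4 and 55.4 CPM in siMk5 with palmitic acid. That difference of -0.20 on the log2 scale (95% CI -0.34 to -0.07) had an edgeR FDR of 0.169 and did not pass, although the libraries did not overlap, as was so for 14.7% of all genes. At an unadjusted p under 0.05, edgeR marked 0 of the 10 in BSA and 1, Trim54, with palmitic acid, and DESeq2 called 0 in both media.

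Palmitic acid gave changes in both directions. With siNTC, 4 of the 10 were called, Fbxo40 and Fbxo30 higher and Nedd4 and Trim55 lower. With siErk3 there were 3, Fbxo40, Fbxo30 and Nedd4, and with siMk5 there were 5, Fbxo40, Fbxo30 and Trim63 higher and Nedd4 and Fbxo21 lower. Among all genes tested, the shares called were 30.6% with siNTC (15.5% higher, 15.1% lower), 32.1% with siErk3 (15.8% and 16.3%) and 29.7% with siMk5 (15.1% and 14.6%), and among the 9332 genes with a mean of at least 10 CPM they were 40.6%, 41.5% and 40.0%. By the FDR alone, 8 of the 10 passed with each siRNA, 4 higher and 4 lower, against 45.1%, 47.1% and 44.3% of all genes. Of these, Trim54 in siMk5 (FDR 0.0465) no longer passed without siMk5 replicate 1 or 2 in BSA or replicate 1 or 2 with palmitic acid (FDR 0.137 to 0.261), and Trim32 in siErk3 not without replicate 2 with palmitic acid (0.0652). The median log2 change of the 10 genes was 0.03, 0.07 and 0.07, beside -0.03, -0.01 and -0.01 over all genes tested.

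**Figure D3:**
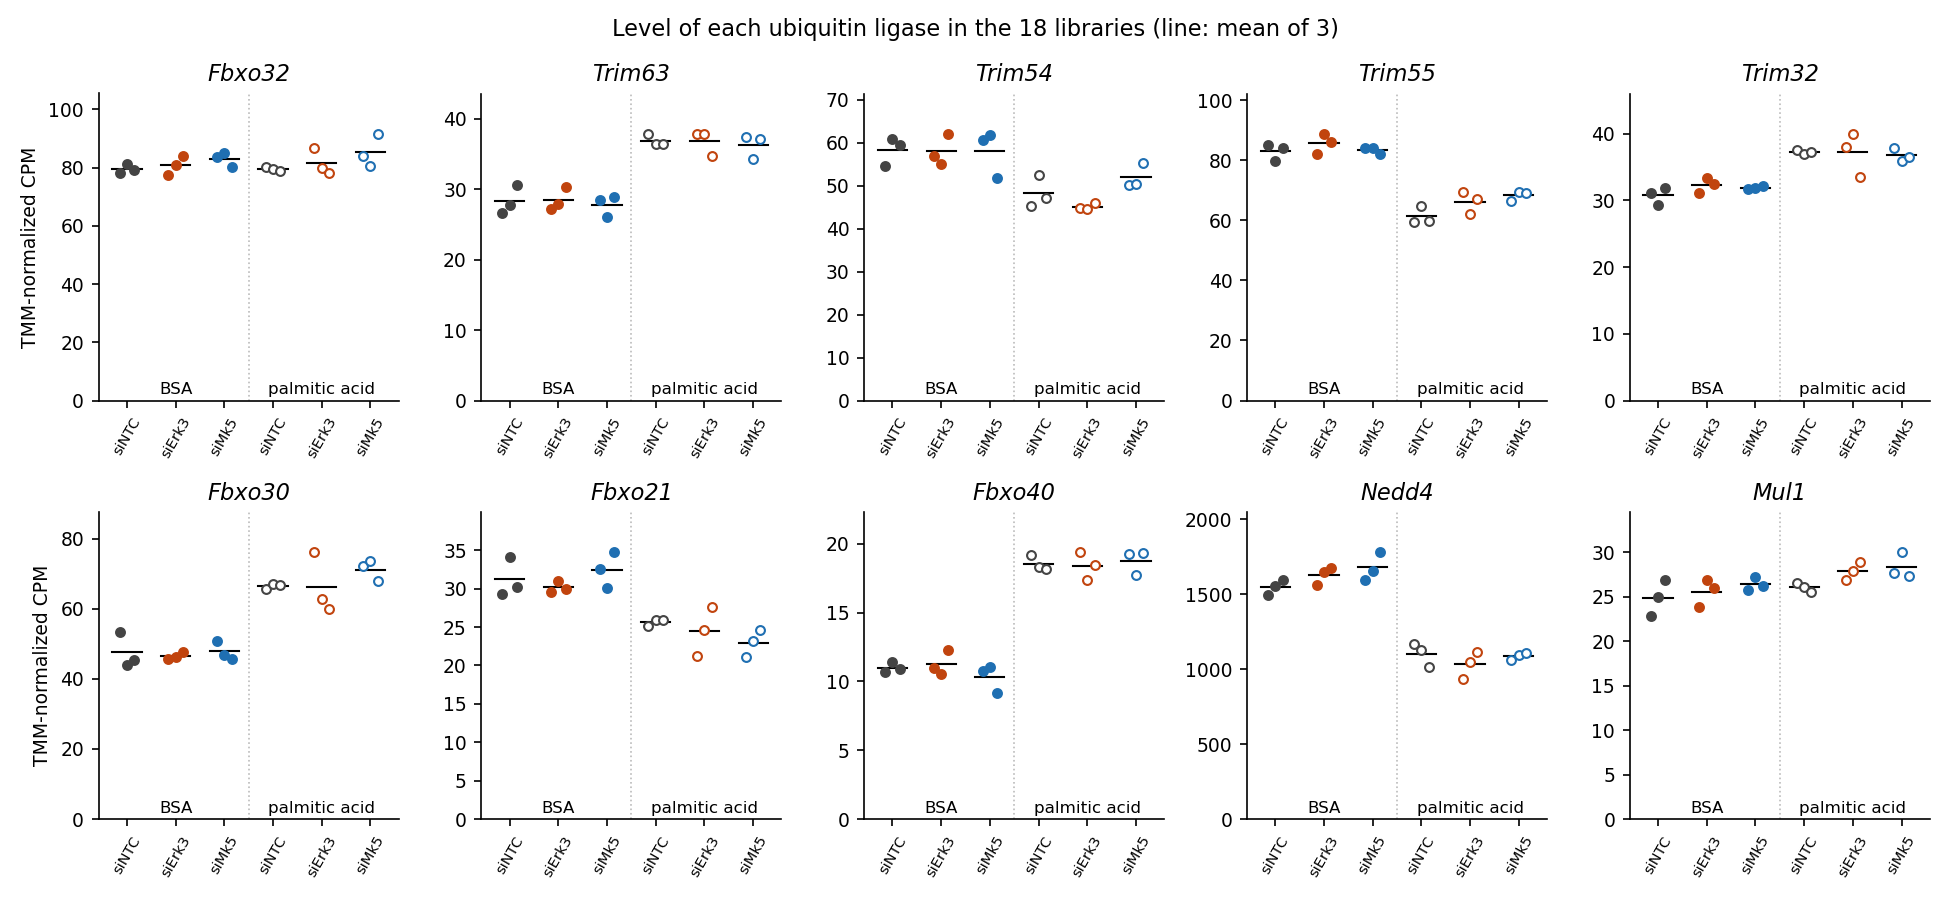
TMM-normalized CPM of each gene in the 18 libraries, 1 point per library, filled in BSA and open with palmitic acid, with a line at the mean of 3 and every vertical axis starting at 0. Fbxo40 lies between 9.13 and 12.3 CPM in BSA and between 17.4 and 19.4 CPM with palmitic acid, while Fbxo32 lies between 77.4 and 91.7 CPM in all libraries.

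The MuRF proteins are RING-type ligases of the sarcomere that form a family of 3, and their genes parted. Trim63, whose product degrades thick filament proteins, was at 26.6, 27.8 and 30.6 CPM in BSA and at 37.8, 36.4 and 36.4 CPM with palmitic acid in siNTC. It was at 27.3, 27.9 and 30.3 against 37.9, 37.9 and 34.7 CPM in siErk3, and at 28.4, 26.0 and 28.9 against 37.4, 34.3 and 37.1 CPM in siMk5. Every library with palmitic acid was thus above every library in BSA.

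The rise of Trim63 was 29.7% with siNTC (log2 fold change 0.38, 95% CI 0.24 to 0.51, edgeR FDR 1.29e-05), 29.4% with siErk3 (0.37, 0.24 to 0.50, FDR 8.24e-06) and 30.5% with siMk5 (0.38, 0.25 to 0.52, FDR 9.09e-06). These values straddle the limit of 30.0%, so only that in siMk5 was called, and 8 of its alternatives ended that call at log2 changes of 0.35 to 0.38. The same size of rise was therefore measured with all 3 siRNAs, whatever side of the limit it fell on.

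Trim55, encoding MuRF2, which links titin and microtubules, moved the other way. In siNTC it was at 84.9, 79.8 and 84.2 CPM in BSA and 59.5, 64.9 and 59.7 CPM with palmitic acid, a log2 change of -0.43 (95% CI -0.54 to -0.33, edgeR FDR 1.73e-08). In siErk3 it was at 82.2, 88.9 and 86.2 against 69.3, 62.0 and 67.2 CPM (-0.38, -0.48 to -0.27, FDR 1.40e-07), a fall of 22.9% just short of the limit of 23.1%. In siMk5 it was at 84.0, 84.0 and 81.9 against 66.4, 69.6 and 69.1 CPM (-0.29, -0.39 to -0.18, FDR 1.82e-05). The groups did not overlap with any of the 3 siRNAs.

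Trim54, encoding the microtubule-associated MuRF3, was also lower with palmitic acid but was called with no siRNA. It went from 54.5, 60.8 and 59.5 CPM to 45.2, 52.5 and 47.1 CPM in siNTC (log2 change -0.28, 95% CI -0.41 to -0.14) and from 56.8, 55.0 and 62.1 CPM to 44.8, 44.5 and 46.1 CPM in siErk3 (-0.36, -0.50 to -0.23). In siMk5 the libraries overlapped, at 60.6, 61.8 and 51.9 CPM in BSA and 50.3, 50.4 and 55.4 CPM with palmitic acid (-0.16, -0.30 to -0.03, edgeR FDR 0.0465). Of the 3 MuRF genes, Trim63 was the 1 that was higher.

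The F-box proteins choose substrates for SCF ligases, which are built on the cullin Cul1. Fbxo40, whose product targets the insulin receptor substrate Irs1, had the largest change of the 10 genes. In siNTC it was at 10.7, 11.4 and 10.9 CPM in BSA and 19.2, 18.3 and 18.1 CPM with palmitic acid, a rise of 68.3% (log2 fold change 0.75, 95% CI 0.58 to 0.92, edgeR FDR 3.87e-09). In siErk3 it was at 10.9, 10.5 and 12.3 against 19.4, 17.4 and 18.5 CPM, a rise of 62.9% (0.70, 0.54 to 0.86, FDR 4.56e-09). In siMk5 it was at 10.7, 11.02 and 9.13 against 19.2, 17.8 and 19.3 CPM, a rise of 81.8% (0.86, 0.69 to 1.03, FDR 2.23e-10). No library with palmitic acid came near the range of BSA.

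Fbxo30, also known as MUSA1, a ligase gene of denervation atrophy, was at 53.4, 44.0 and 45.5 CPM in BSA and 65.8, 67.2 and 67.0 CPM with palmitic acid in siNTC (log2 change 0.49, 95% CI 0.35 to 0.64, edgeR FDR 6.98e-07). It was at 45.8, 46.2 and 47.7 against 76.3, 62.8 and 60.1 CPM in siErk3 (0.51, 0.37 to 0.65) and at 50.9, 46.9 and 45.7 against 72.1, 73.7 and 67.9 CPM in siMk5 (0.57, 0.43 to 0.72). The groups stood apart with each siRNA, and the rise was between 40.9% and 48.8%.

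Fbxo32 showed no such response. It was at 78.0, 81.1 and 79.3 CPM in BSA and 80.0, 79.7 and 78.7 CPM with palmitic acid in siNTC, at 77.4, 81.0 and 83.8 against 86.9, 79.8 and 78.3 CPM in siErk3, and at 83.7, 85.0 and 80.3 against 84.1, 80.4 and 91.7 CPM in siMk5. The libraries overlapped with all 3 siRNAs, and the log2 changes were 0.00 (95% CI -0.11 to 0.11, edgeR FDR 0.994), 0.02 (-0.09 to 0.12, FDR 0.827) and 0.04 (-0.06 to 0.14, FDR 0.581). Averaged over the 3 siRNAs, a contrast added after the values were seen, the interval ran from a fall of 2.88% to a rise of 5.61%.

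Fbxo21, also known as SMART, went down. It was at 29.3, 34.2 and 30.2 CPM in BSA and 25.1, 26.0 and 26.0 CPM with palmitic acid in siNTC (log2 change -0.29, 95% CI -0.45 to -0.13, edgeR FDR 0.00291). It was at 29.6, 31.0 and 30.0 against 21.2, 24.7 and 27.6 CPM in siErk3 (-0.31, -0.46 to -0.15, FDR 0.00131) and at 32.5, 30.0 and 34.8 against 21.1, 23.3 and 24.6 CPM in siMk5 (-0.50, -0.66 to -0.34, FDR 3.54e-06), where it was called. The 4 F-box genes thus split into Fbxo40 and Fbxo30, which rose, Fbxo32, with an interval around 0, and Fbxo21, which was lower.

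Nedd4, the ligase with the highest level, had the largest fall. In siNTC it went from 1496, 1553 and 1594 CPM to 1165, 1126 and 1014 CPM, a fall to 0.712 of its level in BSA (log2 change -0.49, 95% CI -0.60 to -0.38, edgeR FDR 7.85e-09). In siErk3 it went from 1564, 1646 and 1674 CPM to 933, 1050 and 1112 CPM (-0.66, -0.77 to -0.54, FDR 1.39e-11), and in siMk5 from 1596, 1657 and 1781 CPM to 1062, 1094 and 1109 CPM (-0.62, -0.74 to -0.51, FDR 5.30e-11). Every library with palmitic acid was below every library in BSA.

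Trim32, a ligase that targets desmin and thin filament proteins, was higher with palmitic acid, below the fold limit. In siNTC it was at 31.1, 29.3 and 31.9 CPM against 37.6, 37.0 and 37.3 CPM (log2 change 0.28, 95% CI 0.15 to 0.41, edgeR FDR 0.00032), and the change was 0.21 in siErk3 (0.09 to 0.33) and 0.21 in siMk5 (0.08 to 0.33). In siErk3 the groups came close, with a highest library of 33.4 CPM in BSA and a lowest of 33.5 CPM with palmitic acid. Mul1, a ligase of the mitochondrial outer membrane that targets mitofusin 2, was at 22.8 to 30.0 CPM in all libraries, with log2 changes of 0.06 (-0.08 to 0.19), 0.12 (-0.01 to 0.26) and 0.10 (-0.03 to 0.24), none of which passed.

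**Figure D4:**
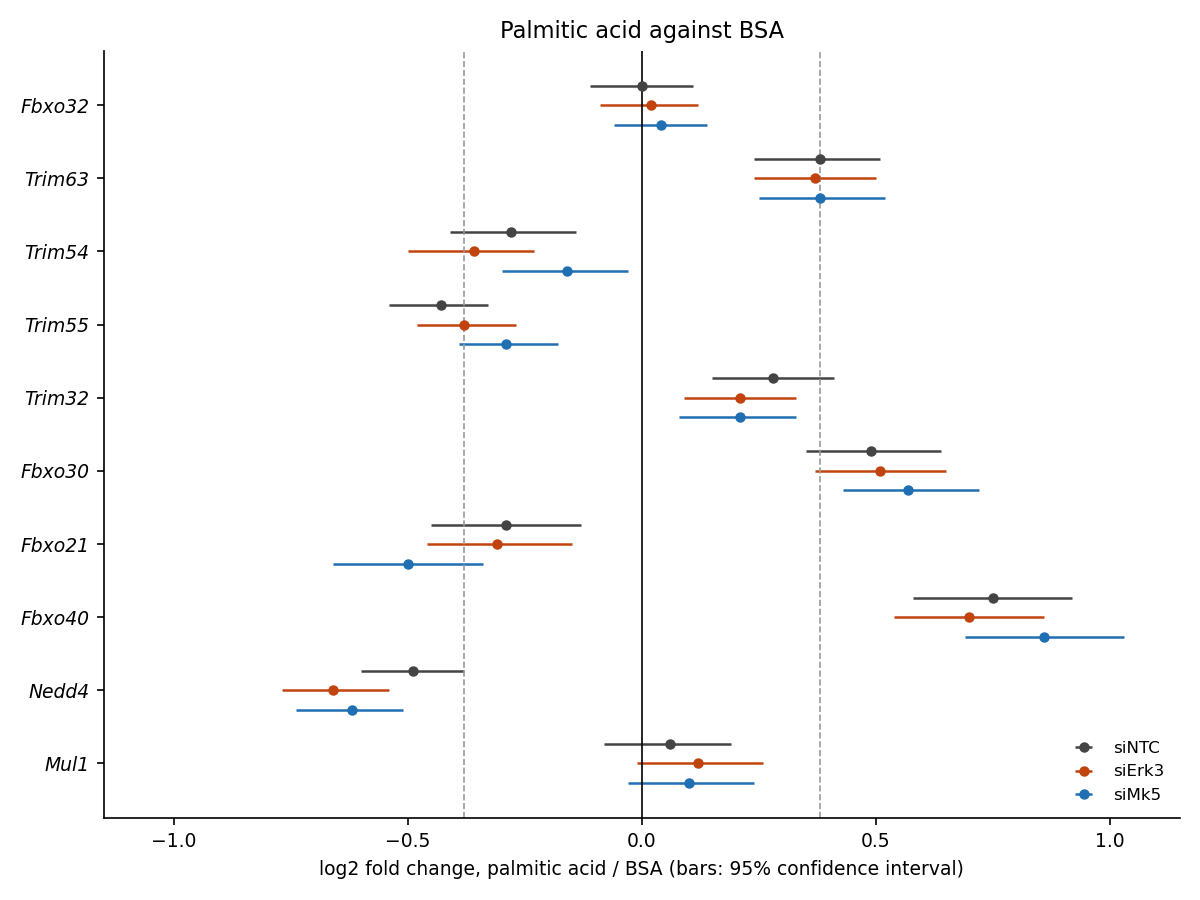
Log2 fold change of each gene with palmitic acid against BSA in siNTC, siErk3 and siMk5, with bars for the 95% confidence interval from the edgeR fit and dashed lines at the 1.3-fold limits. Fbxo40 (0.70 to 0.86) lies above the upper limit and Nedd4 (-0.66 to -0.49) below the lower limit with all 3 siRNAs, and Trim63 (0.37 to 0.38) lies on the upper limit.

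Over the 3 siRNAs, the groups in BSA and with palmitic acid did not overlap for 8, 9 and 8 of the 10 genes in siNTC, siErk3 and siMk5, against 51.3%, 53.9% and 51.9% of all genes tested. In the averaged contrast, 3 genes were called (Fbxo40 0.77, SE 0.047, Fbxo30 0.53, SE 0.041, and Nedd4 -0.59, SE 0.032) against 37.3% of all genes, and 9 passed the FDR alone, 5 higher and 4 lower, against 58.9%. The gene that did not pass was Fbxo32. Mul1, at 0.09 (95% CI 0.02 to 0.17, edgeR FDR 0.0317), passed only here, and not with DESeq2 (0.0707), with at least 10 counts in every library (0.0574) or without any 1 of 7 libraries (0.0546 to 0.125).

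Other genes moved with palmitic acid that mark the makeup of the cultures. The summed level of 8 myotube markers was 12100 to 15100 CPM in BSA and 11200 to 13100 CPM with palmitic acid. Of the 8, 3, 1 and 1 (37.5%, 12.5% and 12.5%) were called lower in siNTC, siErk3 and siMk5. The shares called lower over all genes tested were 15.1%, 16.3% and 14.6%. Myog was called lower in all 3 (log2 changes of -0.59, -0.48 and -0.44). None of the 8 was at 0. Markers of myoblasts and cycling cells summed to 931 to 1020 CPM in BSA and 379 to 505 CPM with palmitic acid, with 5 of 6 called lower with each siRNA, such as the proliferation marker Mki67 (-1.13, -1.25 and -1.28). Markers of fibroblasts, which C2C12 myoblasts also express in part, fell from 8550 to 10800 CPM to 2600 to 4650 CPM, with 4 of 5 called lower, led by the collagen gene Col1a1 (-1.22, -1.54 and -1.49).

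Markers of adipocytes summed to at most 0.186 CPM in any library, with Plin1 and Cidec at 0 throughout. Those of macrophages summed to 1.44 to 2.52 CPM, with Adgre1 at 0 throughout. Those of endothelial cells summed to at most 1.12 CPM, with Tie1 at 0 throughout and Kdr at 0 in BSA. Calls among these lists (Csf1r, Cd68 and Kdr, and Pecam1 in the averaged contrast) were at or below 1.72 CPM in every library. In bulk RNA, fewer cells of a type and less RNA per cell cannot be told apart, and the part of the falling proliferation and fibroblast markers in the changes of the ligases was not tested. The 18S share was 8.39% to 12.87% in the siMk5 libraries in BSA and 1.71% to 6.69% in those with palmitic acid, and 4, 3 and 5 ligases were called in siNTC, siErk3 and siMk5 also when this gene was left out of the counts.

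Whether silencing altered the response to palmitic acid was tested as an interaction. None of the 10 was called for siErk3, where 0.0367% of all genes were called, or for siMk5, where 0.211% were. The widest values for siErk3 were -0.17 for Nedd4 (95% CI -0.33 to -0.01, edgeR FDR 0.782) and 0.07 for Mul1 (-0.12 to 0.26). For siMk5 they were -0.21 for Fbxo21 (-0.44 to 0.02, FDR 0.683) and 0.15 for Trim55 (0.00 to 0.29, FDR 0.665). At an unadjusted p under 0.05 there was 1 gene in each, Nedd4 and Trim55, and DESeq2 called 0 in both. The difference between called and uncalled responses across siRNAs, as for Trim55 and Fbxo21, was thus not itself past the threshold. The intervals of the interaction reached from a fall of 26.2% to a rise of 27.5% over the 10 genes. The 3 palmitic acid comparisons have no libraries in common, but each interaction rests on the siNTC libraries.

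The genes around the family were taken from lists by role. Of 20 regulators upstream of the ligases, palmitic acid raised 4 and lowered 4 in siNTC, raised 2 and lowered 4 in siErk3, and raised 2 and lowered 5 in siMk5. These are 20%, 10% and 10% higher and 20%, 20% and 25% lower, beside 15.5%, 15.8% and 15.1% of all genes called higher and 15.1%, 16.3% and 14.6% called lower, the shares against which the lists that follow can be read. Klf15, a glucocorticoid-induced factor that acts on ligase genes, was nearly absent in BSA, with 22 read pairs over the 3 siNTC libraries (0.211 to 0.567 CPM), and rose to 401 read pairs (5.81 to 6.66 CPM), a log2 change of 4.06 (SE 0.23, edgeR FDR 2.48e-15). With siErk3 and siMk5 its changes were 5.21 and 4.67. Smad3, which carries myostatin and TGF-beta signals, fell from 121 to 136 CPM to 63.5 to 65.9 CPM in siNTC (-1.0, SE 0.055, FDR 8.35e-16) and by similar amounts with siErk3 (-1.07) and siMk5 (-1.09).

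The FoxO genes, picked out after their values were seen, did not rise. Foxo1 fell from a mean of 78.2 to 41.5 CPM in siNTC, with log2 changes of -0.92, -1.11 and -0.98 with the 3 siRNAs, and Foxo3 was at 87.1 and 74.0 CPM, with -0.24, -0.33 and -0.37, short of the fold limit. Foxo6 went from 28.4 to 11.7 CPM in siNTC, with -1.29, -1.29 and -1.19, and Foxo4 from 44.4 to 36.4 CPM, with -0.29, -0.29 and -0.21, also short of it. Nr3c1, encoding the glucocorticoid receptor, was at 123 and 139 CPM with 0.18, 0.12 and 0.07, also short of it. Tnfrsf12a, the receptor of the cytokine TWEAK, rose with all 3 siRNAs (0.98, 0.90 and 0.98).

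Of 19 known targets of FoxO factors or of the glucocorticoid receptor, 10 (52.6%) were called higher with each siRNA and 3, 3 and 4 (15.8%, 15.8% and 21.1%) lower, with medians of 0.51, 0.49 and 0.53 beside the medians near 0 over all genes given above. The lists were chosen with earlier results of these data known, so these shares are a description and no test. The metallothionein genes led the list. In siNTC, Mt2 rose from 30.3 to 32.3 CPM to 108 to 114 CPM (log2 change 1.81, SE 0.059, edgeR FDR 2.48e-21), and Mt1 rose from 57.6 to 60.6 CPM to 160 to 174 CPM (1.53, SE 0.053, FDR 7.28e-21). Metallothioneins bind zinc and copper and also respond to metal, so they are not markers of FoxO alone. With siErk3 and siMk5, Mt2 changed by 2.07 and 1.64, and Mt1 by 1.80 and 1.58. Other genes of the list, picked out after their values were seen, went both ways. Pdk4 (1.61, 1.54 and 1.43), Klf9 (1.04, 0.97 and 0.97), Gadd45a (0.91, 1.19 and 1.06) and Ddit4 (0.89, 0.83 and 0.87) were called higher with each siRNA. Sesn1 (-0.90, -0.96 and -0.97) and Sesn3 (-1.39, -1.61 and -1.57) were called lower with each siRNA. Fkbp5 was lower (-0.31, -0.48 and -0.50), short of the fold limit in siNTC, and Tsc22d3 was not called (-0.07, -0.13 and -0.02). The list mixes targets of FoxO factors and of the glucocorticoid receptor, and the activity of either was not tested.

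Of the machinery shared by ligases, the SCF and cullin list was the steadier. Of 12 genes of the SCF core, the cullins and the NEDD8 pathway that activates them, 0 were called with any siRNA, with medians of 0.06, 0.07 and 0.10 and values from -0.16 to 0.27. Of 15 genes of ubiquitin and its activating and conjugating enzymes, 4, 3 and 3 (26.7%, 20% and 20%) were called higher and 0 lower. Their medians were 0.28, 0.18 and 0.20. The conjugating enzyme gene Ube2e1 rose from 33.4 to 34.7 CPM to 52.5 to 54.2 CPM in siNTC (log2 change 0.65, SE 0.055), and by 0.59 and 0.46 with siErk3 and siMk5.

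Among 27 other ligase genes of muscle, 7, 6 and 4 (25.9%, 22.2% and 14.8%) were called higher and 4, 5 and 2 (14.8%, 18.5% and 7.41%) lower. Smurf1, encoding a ligase of Smad proteins, rose from 86.7 to 91.6 CPM to 152 to 173 CPM in siNTC (log2 change 0.86, SE 0.058, edgeR FDR 1.06e-13), and by 0.77 and 0.73 with siErk3 and siMk5. Ubr2, a ligase of the N-degron pathway, rose by 0.64, 0.66 and 0.60 on the log2 scale with the 3 siRNAs. Asb2, a cullin-based ligase that limits muscle mass, fell from 11.5 to 13.6 CPM to 2.88 to 4.45 CPM in siNTC (-1.74, SE 0.13), and changed by -1.36 and -1.57 with siErk3 and siMk5. Asb2 was also the 1 ligase gene called after silencing, at 5.39 to 6.95 CPM in siErk3 with palmitic acid (0.64 against siNTC, SE 0.14, edgeR FDR 0.0166).

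Of 14 deubiquitinases, 3, 1 and 1 (21.4%, 7.14% and 7.14%) were called higher and 0, 1 and 1 lower. Uchl1 was higher with each siRNA (log2 changes of 1.00, 1.02 and 0.87), Usp10 in siNTC (0.47), and Usp2 lower in siErk3 (-0.47) and siMk5 (-0.38). Of 12 genes whose proteins are known substrates of the ligases, 0 were called higher and 5, 3 and 3 (41.7%, 25% and 25%) lower. Irs1, a substrate of Fbxo40, fell from 236 to 249 CPM to 137 to 155 CPM in siNTC (-0.76, SE 0.054, edgeR FDR 3.13e-13) and by 0.91 and 1.00 on the log2 scale with siErk3 and siMk5. Myod1, a substrate of Fbxo32, fell with log2 changes of -0.91, -0.80 and -0.76, and Myog fell as given above. Among the substrate genes, Actn2, encoding the Z-disc protein alpha-actinin 2, was called after silencing of Erk3, at 0.48 (SE 0.054) in BSA and 0.42 (SE 0.055) with palmitic acid. The myosin heavy chain gene Myh3, a myotube marker, was also called with siErk3 in BSA (0.39, SE 0.051). These are RNA levels and say nothing of protein levels or of protein breakdown.

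**Figure D5:**
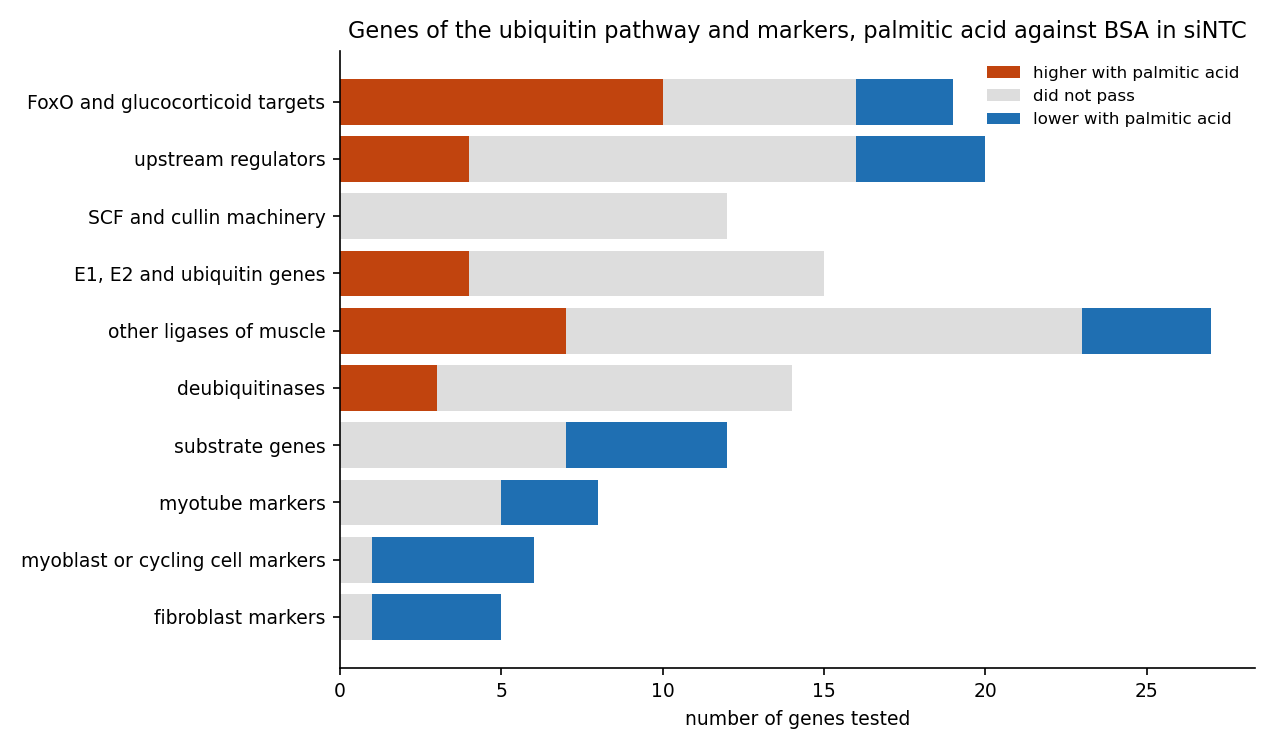
Number of genes called higher, called lower or not called with palmitic acid against BSA in siNTC, for lists of genes around the ligases and for markers of cell types. The list of FoxO and glucocorticoid targets has 10 of 19 genes higher and 3 lower, the SCF and cullin list has 0 of 12 called, and the marker lists hold 0 genes called higher.

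The genes with profiles most like those of Fbxo32 and Trim63 were found by the root mean square difference of their centred log2 CPM over the 18 libraries, among 12733 genes with a mean of at least 1 CPM. Fbxo32 itself varied by 0.061 on that scale, and the nearest genes were Cab39l (0.0485), Actr10 (0.0509) and Uqcc1 (0.0518), all with a nearly flat profile. Trim63 varied by 0.2, and the nearest were the proteasome subunit gene Psmd1 (0.0542), Pcnx4 (0.055) and Nadk (0.0567). These are descriptions over libraries that share groups, with no test.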

How the data were processed

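RNA of C2C12 myotubes was sequenced by the authors as stranded, poly(A)-selected paired-end libraries, 18 in 6 groups of 3, grouped by the sample labels. The deposited table holds raw counts of read pairs per gene, made by the authors with featureCounts 2.0.0 on Ensembl 105 (GRCm39 in the file header, although the labels list mm10), counting strand-aware (option value 2), with multiple placements of a pair reduced to the primary and a mapping quality floor of 3. A table of log2 values was not used. Pairs overlapping exons of several genes on a strand were left unassigned, which lowers Nedd4.

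Of 55414 genes, the 21772 whose counts summed to 10 or more were tested with edgeR 4.0.16 (TMM, quasi-likelihood test, all libraries in 1 fit) in R 4.3.3, at an FDR below 0.05 and a fold change above 1.3. DESeq2 1.42.0 was an alternative. The code was tested on simulated counts. Total counts were 13041979 to 28496727 per library, and the lowest count of any of the 10 genes was 152, for Fbxo40. The part of counting error in the spread between libraries was not taken. Gene names and promoters came from GENCODE M39 on GRCm39. The members and lists were chosen with earlier results of these data known. The text names the 10 genes, the silenced genes, the 2 called genes with the smallest FDR of each list and comparison, and the 3 genes most like Fbxo32 and Trim63. A gene that this rule names is not reported here. The FoxO genes, Nr3c1, Tnfrsf12a, Pdk4, Klf9, Gadd45a, Ddit4, Sesn1, Sesn3, Fkbp5 and Tsc22d3 were added after their values were seen. Other alternatives were DESeq2 size factors, other filters on low counts, the FDR alone, the 18S gene left out, only the groups compared, a replicate block and each library left out.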

Additional observations from a re-analysis of the deposited data

How the results depend on the processing

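In the silencing comparisons, the comparisons of siErk3 with siMk5 and the interactions, 0 of the 10 genes were called under every alternative run. For palmitic acid, no called change turned direction, and Fbxo40, Fbxo30 and Nedd4 with each siRNA, Trim55 in siNTC and Fbxo21 in siMk5 kept their calls under every alternative run. With the FDR alone, 8 genes each passed in siNTC, siErk3 and siMk5 in place of 4, 3 and 5, and 9 in the averaged contrast in place of 3. At least 10 counts in every library gave 5 in the averaged contrast. Leaving out 1 library gave 4 to 5 in siNTC, 3 to 7 in siErk3 (7 without siErk3 replicate 3 with palmitic acid, and 5 without siErk3 replicate 1 or replicate 3 in BSA), 4 to 5 in siMk5 and 3 to 5 in the averaged contrast (5 without siMk5 replicate 1 in BSA, siNTC replicate 2 with palmitic acid or siErk3 replicate 3 with palmitic acid). Genes close to the 1.3-fold limit, Trim63, Trim54, Trim55 and Fbxo21, crossed it. The call of Trim63 in siMk5 was lost with DESeq2, DESeq2 size factors, filterByExpr, at least 10 counts in every library and only the groups compared, and without siMk5 replicate 2 in BSA or replicate 1 or 3 with palmitic acid (0.35 to 0.38), while beside the FDR alone it was gained in siNTC without replicate 3 in BSA or replicate 2 or 3 with palmitic acid (0.38 to 0.44), in siErk3 with no filter and without replicate 3 in BSA or with palmitic acid (0.38 to 0.41), and in the averaged contrast with no filter and without 5 libraries in turn (0.38 to 0.40).

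The labels do not say what libraries with the same replicate number share. Across 45 pairs of such libraries, deviations from the group mean had correlations of -0.67 to 0.58, with a mean of 0. These values cannot exclude a shared culture or batch. With a replicate block, 4, 3 and 5 genes were called in siNTC, siErk3 and siMk5, 3 in the averaged contrast and 0 elsewhere. The count over all genes moved most where few were called. With no filter it was 61 in place of 14 for siMk5 in BSA, 208 in place of 121 for siErk3 with palmitic acid, 201 in place of 128 for siErk3 against siMk5 in BSA, 72 in place of 8 for the siErk3 interaction and 130 in place of 46 for the siMk5 interaction. With the FDR alone it was 263 in place of 171 for siErk3 in BSA, 186 for siErk3 with palmitic acid and 12834 in place of 8121 in the averaged contrast. With only the groups compared it was 34 for siMk5 in BSA. The siErk3 interaction had 4 with DESeq2 size factors, 2 without the 18S gene and 0 with either stricter filter. Leaving out 1 library gave 111 to 146 for siErk3 in BSA, 6 to 31 for siMk5 in BSA, 0 to 24 for the siErk3 interaction and 24 to 67 for the siMk5 interaction. The cause of these shifts was not tested.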
